A study of Mus musculus with 2 samples.

Results

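Active vitamin D is made and destroyed in the kidney, and the same organ decides how much filtered calcium returns to the blood. The 10 genes described here run that system: Cyp27b1 and Cyp24a1 (synthesis and breakdown of the hormone), Vdr and Rxra (its receptor and the receptor's partner), Kl (Klotho), Trpv5 and Trpv6 (calcium entry into tubule cells), Calb1 (calcium buffering), and Slc8a1 and Atp2b1 (calcium exit into the blood). They were named by their role in this pathway, with earlier results of these data known, and are 10 of the 21938 protein-coding genes that served as background. A promoter peak was a peak within 500 bp of any start site in the GENCODE M21 basic annotation. The locus of a gene was its body with 10 kb on each side.

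Parathyroid hormone raises the 1-alpha-hydroxylase encoded by Cyp27b1 in proximal tubule cells. The bone hormone FGF23, which needs Klotho as its co-receptor, lowers this enzyme and raises the 24-hydroxylase encoded by Cyp24a1. In the distal convoluted and connecting tubule, calcium enters through TRPV5 and TRPV6, is carried by calbindin, and leaves through the exchanger NCX1 and the pump PMCA1.

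DNase-seq, which finds accessible chromatin by sequencing the ends that DNase I cuts in nuclei, was applied to whole kidney of male mice, 25 days old, of the strain B6CASTF1/J, a first-generation cross between C57BL/6J and CAST/EiJ. Both libraries, biological replicates of 1 group (n = 2), had no labelled treatment or mutation, and there was no control group, so the values of the libraries are set side by side and no test between animals was possible. The labels give the libraries separate animal numbers but the same donor code, and they were read as separate mice. Values are given as replicate 1, then replicate 2.

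Replicate 1 had 125393 peaks and 237471 footprints, short stretches protected from cutting inside accessible chromatin, and replicate 2 had 177001 and 493495. The number of reads behind each library is unknown. Of 14 marker genes of kidney cell types, 12 had a promoter peak in both libraries, against 65.3% of all protein-coding genes. Among them were all 4 proximal tubule genes (Lrp2, Slc34a1, Slc5a2 and Aqp1). So were all 4 genes of the distal convoluted and connecting tubule (Slc12a3, Trpm6, Pvalb and Klk1), with low peaks. Aqp2 of principal cells and Nphs1 of podocytes had one in replicate 2 only, at 0.462 and 0.442. None of 6 markers of liver, leukocytes, heart and skeletal muscle had one in both libraries. In whole tissue, fewer cells of a type and less accessibility per cell cannot be told apart.

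A set of 8 sites shows where the accessible sequence of these genes lies, read from GRCm38.p6 (mm10) and printed 5′ to 3′ on the strand of the gene. Capitals mark bases inside footprints of both libraries, except at Cyp27b1, where only replicate 2 had a peak and capitals mark its footprints. Only the stretch of each peak outside annotated exons is printed. The letters are those of the C57BL/6J reference, not of the CAST/EiJ allele that these mice also carry.
Cyp27b1 start site, chr10:127048041-127048245, plus strand: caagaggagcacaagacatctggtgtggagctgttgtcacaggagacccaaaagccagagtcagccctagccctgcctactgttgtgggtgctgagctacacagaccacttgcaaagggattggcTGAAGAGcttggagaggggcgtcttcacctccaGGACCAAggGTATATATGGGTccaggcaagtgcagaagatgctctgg
Vdr start site, chr15:97908311-97908420, minus strand: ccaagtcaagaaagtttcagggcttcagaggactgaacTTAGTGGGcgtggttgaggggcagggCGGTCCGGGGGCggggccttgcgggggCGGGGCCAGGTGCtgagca
Vdr downstream site, chr15:97849741-97849900, minus strand: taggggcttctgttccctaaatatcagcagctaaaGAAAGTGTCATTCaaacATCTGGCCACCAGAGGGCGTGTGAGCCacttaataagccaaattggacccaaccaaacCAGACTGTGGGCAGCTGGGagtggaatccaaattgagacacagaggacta
Rxra intron site, chr2:27758501-27758660, plus strand: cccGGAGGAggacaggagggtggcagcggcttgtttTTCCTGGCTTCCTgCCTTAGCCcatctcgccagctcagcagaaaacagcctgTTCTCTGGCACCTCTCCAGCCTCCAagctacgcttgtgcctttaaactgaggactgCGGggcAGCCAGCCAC
Kl start site, chr5:150952481-150952606, plus strand: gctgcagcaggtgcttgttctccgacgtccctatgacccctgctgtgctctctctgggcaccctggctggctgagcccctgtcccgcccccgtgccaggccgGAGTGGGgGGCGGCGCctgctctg
Kl intron site, chr5:150974361-150974520, plus strand: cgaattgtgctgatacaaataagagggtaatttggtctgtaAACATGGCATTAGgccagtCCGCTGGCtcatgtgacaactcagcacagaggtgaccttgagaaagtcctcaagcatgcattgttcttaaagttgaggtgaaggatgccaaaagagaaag
Slc8a1 intron site, chr17:81480421-81480600, minus strand: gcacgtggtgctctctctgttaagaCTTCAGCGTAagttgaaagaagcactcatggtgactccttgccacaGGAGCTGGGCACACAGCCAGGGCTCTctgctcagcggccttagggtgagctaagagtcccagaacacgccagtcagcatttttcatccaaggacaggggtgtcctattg
Atp2b1 5′ end, chr10:98914181-98914405, plus strand: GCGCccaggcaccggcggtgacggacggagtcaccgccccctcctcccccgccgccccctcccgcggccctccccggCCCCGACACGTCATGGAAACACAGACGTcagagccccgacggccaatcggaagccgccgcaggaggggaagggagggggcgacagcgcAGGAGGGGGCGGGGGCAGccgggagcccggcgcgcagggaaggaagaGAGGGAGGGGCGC

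Of the 10 genes, 7 had a promoter peak in both libraries: Atp2b1, Rxra, Vdr, Kl, Cyp24a1, Calb1 and Trpv5. Over all protein-coding genes the share was 65.3%, so the count lies near the background. By library, 7 of the 10 genes had one in replicate 1, against 66.2% of all genes, and 8 in replicate 2, against 68.0%. Cyp27b1 had one in replicate 2 only, and Trpv6 and Slc8a1 had none in either. The heights of these promoter peaks were modest: the median over the 7 genes of the mean height was 3.82, against 7.37 over all 14329 genes with a promoter peak in both libraries.

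**Figure D1:**
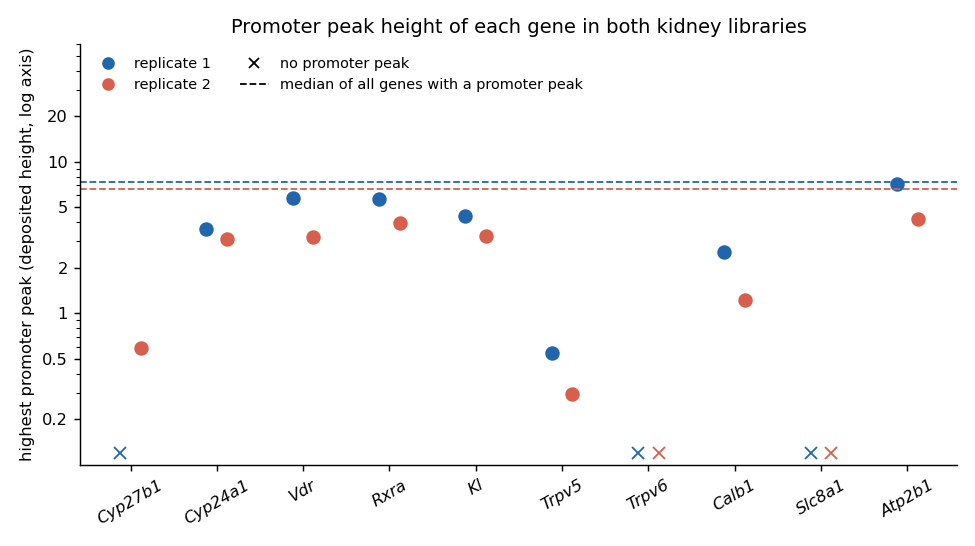
Height of the highest promoter peak of each gene (log axis, height as deposited) in replicate 1 (blue) and replicate 2 (red); crosses mark genes without a promoter peak and dashed lines the medians over all genes with one, 7.36 and 6.63. Both libraries lie below their line for all 7 genes with a peak in both, Trpv5 lies lowest of these, and replicate 1 is above replicate 2 in each.

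In order of mean height, Atp2b1 (5.68 ± 2.06, SD, n = 2 here and below) stood above Rxra (4.79 ± 1.23), Vdr (4.46 ± 1.81), Kl (3.82 ± 0.79), Cyp24a1 (3.35 ± 0.38), Calb1 (1.88 ± 0.93) and Trpv5 (0.42 ± 0.18). From Atp2b1 down to Cyp24a1 the library values of each neighbouring pair overlapped, so the order of neighbours is not resolved beyond the spread between the mice. Within each library, Atp2b1 stood highest of this group (7.14 and 4.22) and Cyp24a1 lowest (3.62 and 3.08). Calb1 lay below Cyp24a1 and Trpv5 below Calb1 in every pair of library values. The highest promoter peak was higher in replicate 1 for all 7 genes (for Rxra these are peaks at different start sites), as it was for 53.9% of all genes with a promoter peak in both libraries.

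Cyp27b1 encodes the enzyme that makes active vitamin D, and peaks were called over its own body in replicate 2 only. Replicate 2 had 4 peaks from 500 bp before the start site (chromosome 10, 127048250) to the end of the gene, and replicate 1 had 0. The peak over the start site, chr10:127048041-127048340, had a height of 0.581 with 4 footprints. The next lay at chr10:127048628-127048900 with 0.591, followed by chr10:127048901-127049140 with 0.770 and chr10:127049881-127050060 with 0.974. All 4 held footprints and stood in the stricter of the deposited peak lists too. They are low peaks, from the library with more peaks in all (177001 against 125393), and lack of a call in replicate 1 does not show closed chromatin. Of all replicate 2 peaks with a height from 0.5 to 1, 64.6% overlapped a replicate 1 peak, and of those also in the stricter list 72.5% did. The 4 peaks here, of which 0 did, lie close together in 1 gene. They were set apart with their absence from replicate 1 known, so that 0 cannot be weighed against these shares. In the deposited list of false discovery rates (FDR), which holds bases below 0.05, no base within 500 bp of the start site was listed in replicate 1. In replicate 2, 462 of the 1001 bases were, with a lowest FDR of 1.79e-05.

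The sequences upstream of Cyp27b1 were accessible in both mice. In mice, elements that respond to parathyroid hormone and FGF23 have been mapped to introns of the neighbouring genes Mettl1 and Mettl21b, the older name of Eef1akmt3. The Mettl1 intron held a peak at chr10:127043301-127043560 in replicate 1 and chr10:127043281-127043560 in replicate 2, its midpoint 4.82 kb upstream of the Cyp27b1 start, with heights of 2.65 and 3.66 and with 2 and 4 footprints. In the Eef1akmt3 introns, outside the 10 kb flank, a peak 11.8 kb upstream had 2.51 and 3.06. Another, 14.7 kb upstream, had 1.78 and 1.99. These 3 intronic sites stood at 1.78 to 3.66, above every peak in the body of Cyp27b1. The same introns also held lower peaks: in Eef1akmt3, 10.4 kb upstream with 0.718 and 1.05 and 7.28 kb upstream with 0.769 and 0.964, and in Mettl1 one of 0.407 in replicate 2 only. The promoter peak of Mettl1 itself, 6.31 kb upstream, had 5.81 and 6.58. On the other side, a peak in a March9 exon, chr10:127058281-127058460, had 4.62 and 3.66 with 6 and 7 footprints. It lay 10.1 kb downstream of the Cyp27b1 start. Of the locus peaks more than 1 kb from every start site it was the highest in replicate 1. In replicate 2 it equalled the Mettl1 intron peak. Whether any of these sites acts on Cyp27b1 was not tested. The start-site sequence above holds one CCAAT box (CCAAT, searched on both strands) outside its footprints.

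Cyp24a1, which encodes the enzyme that inactivates vitamin D, had a promoter peak in both mice, at chr2:170497201-170497580 in replicate 1 and chr2:170497341-170497600 in replicate 2. The heights of this promoter peak were 3.62 and 3.08, with 4 and 5 footprints. The peak lies just upstream of the start site at 170497145 on the minus strand and inside an intron of the overlapping gene Pfdn4. A start site of Pfdn4 is also near. A lower peak in a Cyp24a1 exon, with 0.590 and 0.720, has its midpoint 158 and 118 bp from it. Which gene these peaks act on was not tested. Within the 10 kb flanks the gene had 5 and 9 peaks, the highest of them away from start sites at 0.940 and 1.38, 20.7 kb from the start.

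Farther downstream the neighbourhood of Cyp24a1 was richer, in a region where enhancers of this gene have been mapped in mice. A peak 27.4 kb downstream of the start, chr2:170469661-170469820, had heights of 5.79 and 6.74. A second, 46.0 kb downstream at chr2:170451041-170451200, had 7.03 and 4.37, and another, 35.3 kb downstream, had 3.68 and 3.93. These 3 intergenic peaks were each higher than the promoter peak in both mice, and they held 3 to 5 footprints. Lower shared peaks lay among them, 29.0 to 37.2 kb downstream, with heights of 0.323 to 1.94. On the other side, in an intron of Pfdn4 11.8 kb upstream, a peak had 9.61 and 14.8. The range of 50 kb for these neighbours was chosen after the values were seen.

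**Figure D2:**
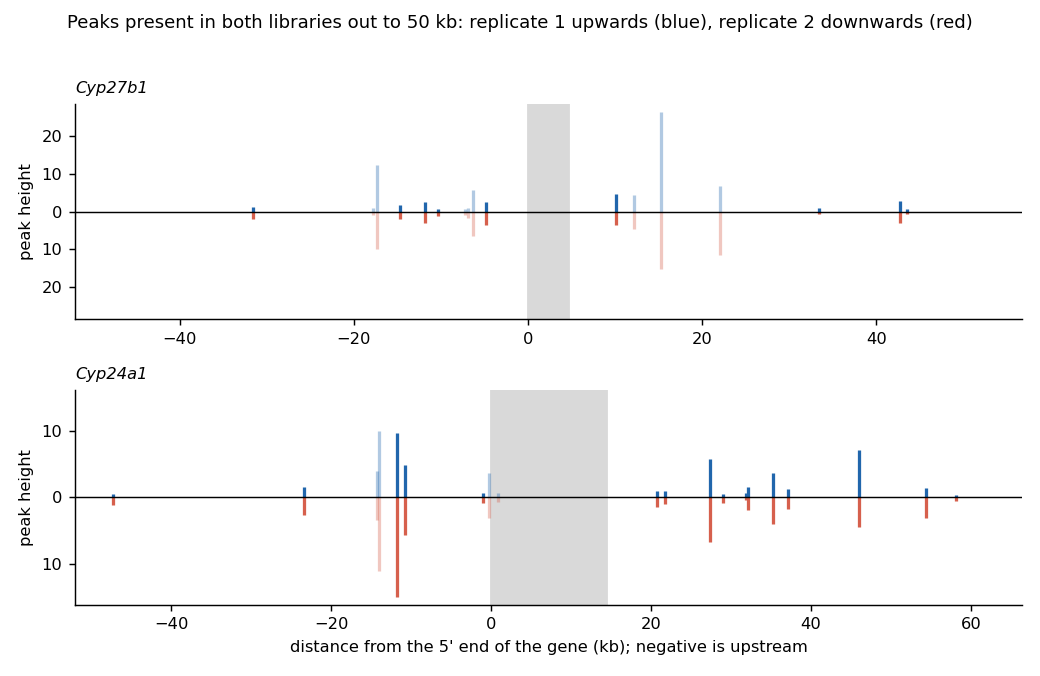
Peaks present in both libraries within 50 kb of Cyp27b1 (top) and Cyp24a1 (bottom), by distance of their midpoint from the 5′ end in the direction of transcription; replicate 1 upwards and replicate 2 downwards, as deposited heights. Grey is the gene body and pale lines are peaks within 1 kb of a start site of any gene. Cyp27b1 has no line inside its body, and Cyp24a1 has distal peaks of 3.68 to 7.03 at 27.4 to 46.0 kb downstream. Lower ones of 0.323 to 1.94 stand among them.

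Vdr encodes the nuclear receptor that binds active vitamin D, and its locus held many peaks, most of those in replicate 1 in the part of the gene nearest its start. Its promoter peak lay at chr15:97908221-97908420 in replicate 1 with a height of 5.73 and at chr15:97908201-97908440 in replicate 2 with 3.18. It held 7 footprints in each library. The stretch printed above has 33 bases in footprints of both libraries and 3 matches to the GC box (GGGCGG), each partly in capitals. The locus had 17 and 24 peaks, all 17 of replicate 1 shared, and 13 and 20 of them lay more than 1 kb from every start site. The highest was downstream of the gene, at chr15:97849741-97849900, 58.5 kb from the Vdr start site and 5318 bp from that of the neighbouring gene Hdac7, with 5.76 and 10.5 and 3 footprints in each mouse. In both libraries it was higher than the promoter peak, barely so in replicate 1. Among all peaks more than 1 kb from every start site it ranked at the 96.8th and 99.3rd percentile. It was picked as the highest of 13 and 20 such peaks, which by itself raises the rank. One of its footprints covers a match to the core motif of CTCF, a factor of chromatin architecture. That motif was searched after the sequence had been seen, and 9.999% and 9.14% of all peaks hold it. Inside the gene the highest peak more than 1 kb from every start site was chr15:97899821-97900000, 8.40 kb from the start, with 3.69 and 5.79. The outermost annotated 5′ end of Vdr, used by transcripts outside the basic set, is 2.32 kb upstream of the basic start site and had no peak within 500 bp.

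Rxra encodes the retinoid X receptor alpha, the partner of the vitamin D receptor and of many other nuclear receptors. It had 35 and 40 peaks, the most of the 10 genes, and 0.352 ± 0.033 peaks per kb. At its main promoter the peak at chr2:27676921-27677160 had 5.66 in replicate 1, and the overlapping one in replicate 2 had 3.22. The highest promoter peak of replicate 2 was another, chr2:27710981-27711120, at an internal start site 34.1 kb into the gene, with 2.21 and 3.92. The highest peak of the locus was in an intron at chr2:27758501-27758660, 48.0 kb from the nearest Rxra start site, with 15.0 and 21.2 and with 6 and 4 footprints. No other peak of the 10 loci was higher in replicate 2, and only that at the 5′ end of Atp2b1 was in replicate 1. Its rank among distal peaks was at the 99.8th and 99.9th percentile, a rank raised by picking it as the highest of 31 and 36. In this peak, 65 of the 160 bases lay in footprints of both mice. Further peaks stood downstream of the gene at chr2:27765021-27765180, with 9.35 and 11.2, and in an intron at chr2:27718301-27718460, with 7.51 and 8.99. All of these were higher than the main promoter peak in both mice.

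Kl encodes Klotho, made mainly in distal tubule cells and needed for the kidney to sense FGF23. Its promoter peak had 4.38 at chr5:150952481-150952720 and 3.26 at chr5:150952481-150952700, with 3 and 4 footprints. The peak straddles the start site at 150952607, and the printed stretch before it has 2 GC boxes, one on each strand. That on the printed strand has 5 of its 6 bases in capitals. The locus had 4 and 7 peaks, and all 4 of replicate 1 were shared. The main site inside the gene, in an intron 21.8 kb from the start at chr5:150974361-150974520, differed most between the mice, with 0.991 in replicate 1 and 2.92 in replicate 2 and 3 footprints in each. On the strand opposite to the printed one it holds the letters TCAAGGTCA, the binding motif of estrogen-related receptors, outside the shared footprints. On either strand, 0.490% and 0.586% of all peaks hold them. Beyond the flank, 35.2 kb upstream, an intergenic peak had 2.27 and 3.03.

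Trpv5, the apical calcium channel of the distal tubule, had the lowest promoter peak of the 7. It reached 0.547 at chr6:41680841-41681000 in replicate 1 and 0.293 at chr6:41680846-41681009 in replicate 2, with 1 footprint in each. Its mean height ranked at the 2.19th percentile of all genes with a promoter peak in both libraries, and the replicate 2 peak was absent from the stricter list. The lowest FDR around the start sites was 1.99e-05 in replicate 1 and 0.00399 in replicate 2. Only one further peak recurred between the mice, 5.02 kb upstream, with 0.376 and 0.497. Trpv6, the sister channel known best from the intestine, had no promoter peak and no listed base within 500 bp of its start sites in either mouse. Its locus held 0 and 1 peaks, the single one in an exon at chr6:41622741-41622900 with 0.442. The paired genes therefore differed in that Trpv5 had a low peak at its start in both mice and Trpv6 in neither, and no test of that difference was possible.

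Calb1 encodes calbindin-D28k, the calcium carrier of distal tubule cells. Its promoter peak at chr4:15881201-15881380 had 2.54 in replicate 1, and that at chr4:15881161-15881380 had 1.22 in replicate 2, with 3 and 4 footprints. A second peak in the gene, 1.24 kb from the start, had 0.436 and 0.452, and nothing else recurred between the mice. Among the promoters of the marker genes of the distal convoluted and connecting tubule, Slc12a3 stood at 1.26 and 1.07, Trpm6 at 0.496 and 0.780, Pvalb (away from its 5′ end) at 0.872 and 0.537 and Klk1 at 0.496 and 0.760. S100g, the gene of the other vitamin D dependent calbindin, had 0.667 and 0.402. Calb1 in replicate 1 lay above all of these values and Trpv5 within or below their range; the part of cell number in these levels was not tested.

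Slc8a1 encodes NCX1, the exchanger that moves calcium out against sodium, and it had no promoter peak at any basic start site. No base within 500 bp of these sites was listed below an FDR of 0.05 in either mouse. Peaks lay elsewhere in its long locus of 385 kb: 14 and 21 in number, of which 10 were shared. One was at chr17:81670001-81670320 and chr17:81670021-81670320, with 1.41 and 1.10 and with 5 and 6 footprints. It covers position 81670187, the start site of a transcript that only the comprehensive GENCODE annotation holds. The comprehensive annotation, an alternative chosen after the values were seen, thus gives Slc8a1 a promoter peak in both libraries and raises the count of genes from 7 to 8. The highest peak was intronic, at chr17:81480421-81480600 and 169 kb from the nearest basic start site, with 3.98 and 5.65 and with 2 and 4 footprints. It ranked at the 93.4th and 96.6th percentile of distal peaks. Since it was picked as the highest of 14 and 21, a high rank follows from the choice and says little about this locus.

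Atp2b1 encodes PMCA1, the calcium pump found in most cells, and its accessibility was concentrated at the 5′ end. The peak counted at its basic start site, chr10:98914941-98915220 in replicate 1, had 7.14 and 4.22. A higher one lay just upstream, at chr10:98914181-98914560 and chr10:98914181-98914520, with 16.6 and 10.9 and with 9 and 10 footprints. That peak covers position 98914406, the start of a transcript that is likewise outside the basic set and begins 746 bp upstream of the basic start site. Counting it as the promoter peak gives a mean height of 13.7 in place of 5.68. The printed stretch before this start holds 3 GC boxes and 1 CCAAT box. Only 1 of the GC boxes lies on the printed strand, and it is wholly in footprints of both mice. Over its body of 112 kb the gene had low peaks only away from the start, the highest distal ones at 0.402 in replicate 1 and 0.546 in replicate 2, neither of them shared.

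**Figure D3:**
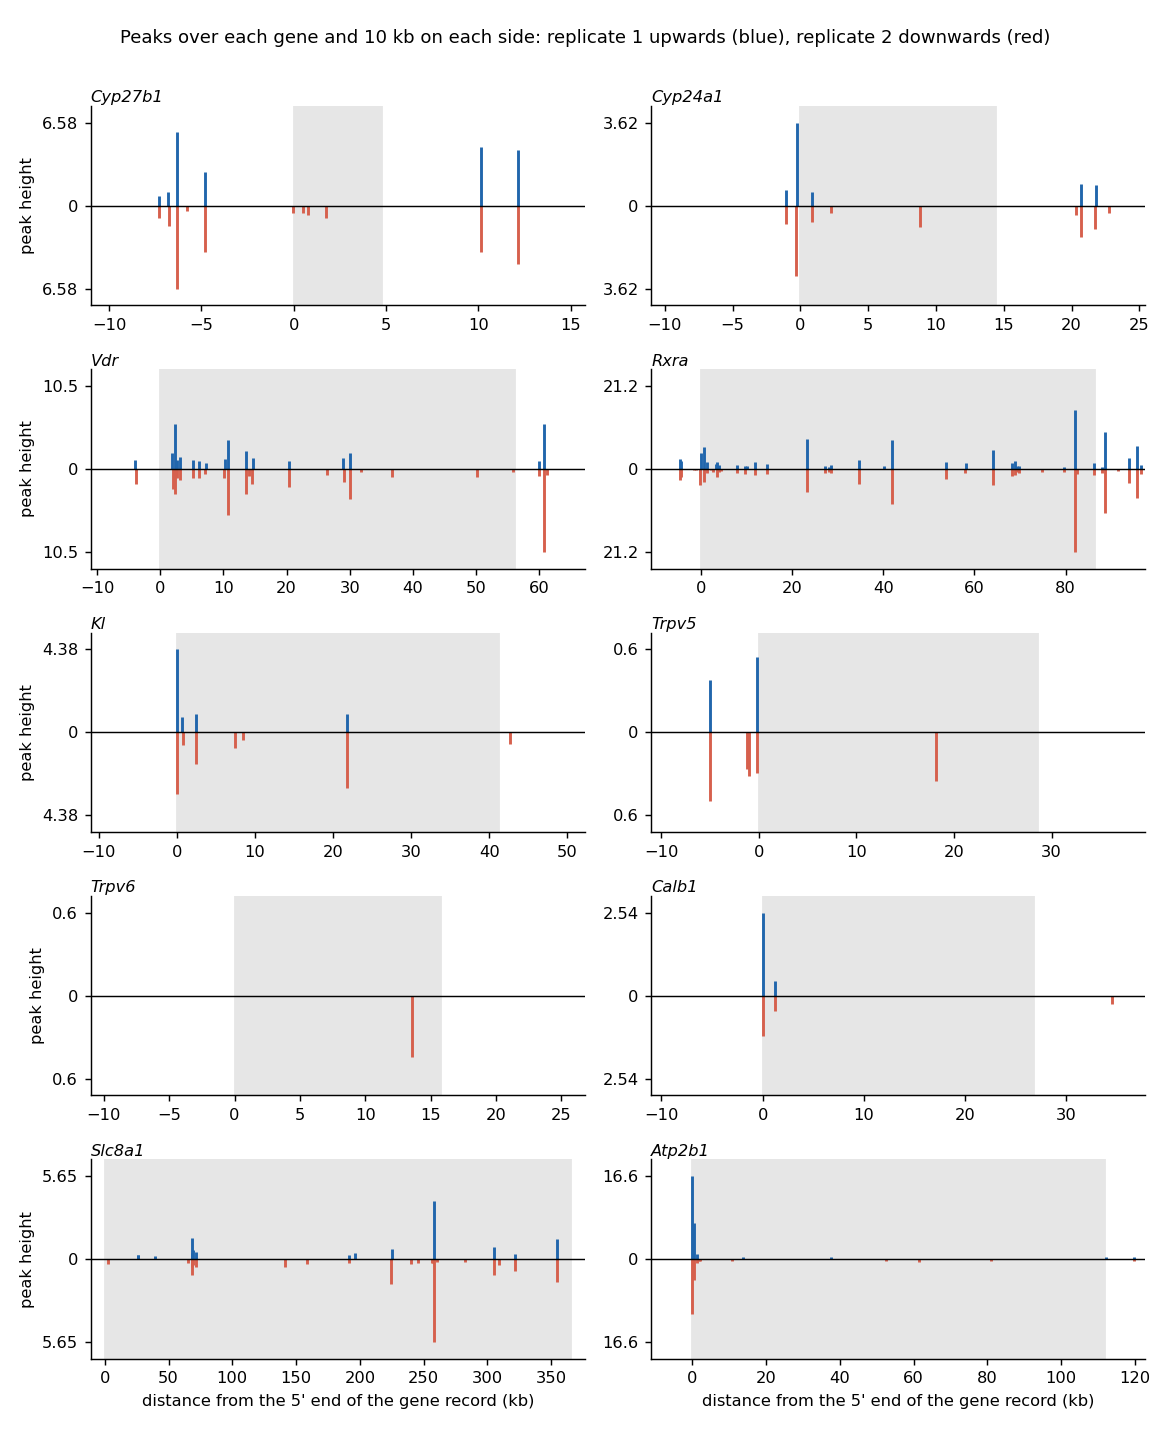
Every peak over each gene and 10 kb on each side, by distance of its midpoint from the 5′ end of the gene record, with replicate 1 upwards and replicate 2 downwards and the gene body in grey; each panel has its own height scale. Rxra, Vdr and Slc8a1 carry their highest peaks far from the 5′ end, whereas those of Atp2b1, Kl, Cyp24a1, Calb1 and, in replicate 1, Trpv5 stand at it.

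The 10 loci differed widely in how many peaks they held for their length. Rxra (0.352 peaks per kb, mean of both libraries), Cyp27b1 (0.343), Vdr (0.269) and Cyp24a1 (0.203) lay above the median of all protein-coding genes, 0.102. Kl (0.0899), Trpv5 (0.0720), Atp2b1 (0.0645), Calb1 (0.0534), Slc8a1 (0.0454) and Trpv6 (0.0140) lay below it. The genes of vitamin D synthesis, breakdown and reception were thus the 4 above the median, at the 79.3rd to 95.3rd percentile, and the 5 calcium transport genes and Kl the 6 below, at the 14.1th to 45.6th. The flanks of Cyp27b1 hold the promoters of Mettl1, Eef1akmt3 and March9, and 6 of its 6 peaks in replicate 1 and all but 4 of its 11 in replicate 2 lay outside the gene. Most of the 5 and 9 peaks of Cyp24a1 also lay outside that gene. The grouping by role was not tested. The median over the 10 genes was 0.0809 peaks per kb. Footprints gave 0.249 per kb over the 10 genes and 0.270 over all genes.

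**Figure D4:**
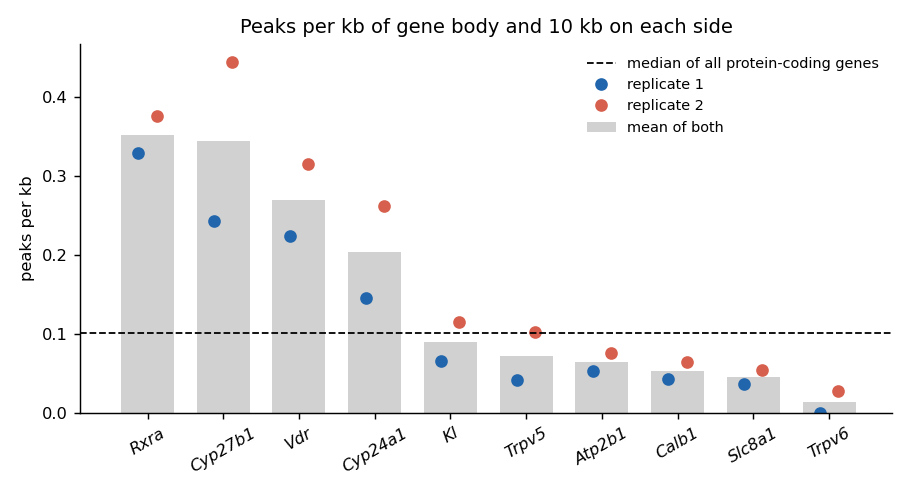
Peaks per kb of gene body and 10 kb on each side; bars are the mean of both libraries, points the libraries (blue, replicate 1; red, replicate 2), and the dashed line the median of all protein-coding genes, 0.102. The 4 genes of vitamin D synthesis, breakdown and reception stand above the line and the others below it. Most peaks counted for Cyp27b1 and Cyp24a1 lie in their flanks.

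Accessible sites of these genes recurred between the mice about as often as elsewhere. Of the 92 locus peaks of replicate 1, 82 (89.1%, exact 95% binomial interval 80.9 to 94.7, over peaks and for counting error only) overlapped a peak of replicate 2, against 87.6% of all peaks. A footprint was present in 68 of the 92 peaks (73.9%) and in 115 of the 131 peaks of replicate 2 (87.8%), against 73.3% and 86.7% of all peaks. Of the 196 footprints of replicate 1 in the loci, 151 (77.0%) overlapped one of replicate 2, against 77.2% of all footprints. Peaks with their midpoint over 1 kb from every start site made up 71 of the 92 and 105 of the 131, or 77.2% and 80.2%, against 73.9% and 78.0% of all peaks.

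Away from start sites the shared peaks were mostly higher in replicate 2, as often as over the whole genome. For the 21 shared member peaks within 1 kb of a start site, the log2 ratio of heights, replicate 2 over replicate 1, had a median of -0.15 (SD 0.53 over peaks), and 8 (38.1%) were higher in replicate 2, against 49.2% of all shared peaks that near. For the 61 farther away it was 0.23 (SD 0.45), and 43 (70.5%) were higher in replicate 2, against 70.0% of all. Over all shared peaks the medians were -0.01 near start sites and 0.25 away from them.

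**Figure D5:**
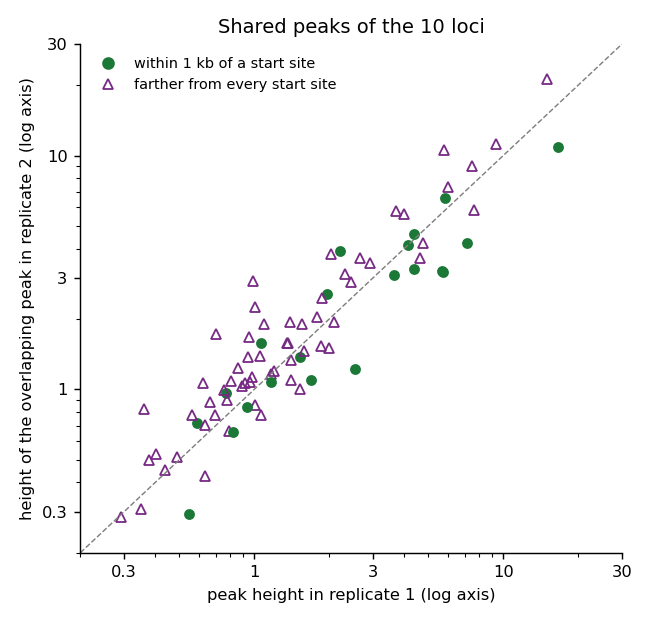
Height in replicate 1 against the height of the overlapping peak in replicate 2 (both axes log) for the 82 shared peaks of the 10 loci, by distance from the nearest start site of any gene; the dashed line marks equal height. Of the 61 peaks farther than 1 kb (triangles) 43 lie above the line, and of the 21 nearer ones (circles) 8 do.

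Motif letters were looked for on both strands, in 200 bp around each peak's midpoint. The direct repeat that binds the vitamin D receptor with its RXR partner (the DR3 element) matched 0 of the 92 and 0 of the 131 member peaks, and 0.262% and 0.294% of all peaks. With 1 mismatch allowed, a setting chosen after the values were seen, it matched 1 peak of replicate 1 and 3 of replicate 2 (1.09% and 2.29%, against 4.75% and 5.00% of all peaks). The letters of the C/EBP motif, TTGCNNAA, were found in 14 and 13 member peaks (15.2% and 9.92%), against 7.78% and 8.02% of all peaks. Those of AP-2, GCCNNNGGC, were in 19 and 20 (20.7% and 15.3%), against 11.7% and 10.6%. Other letters were rarer in member peaks than in all peaks of both libraries: the GC box in 15.2% and 14.5%, against 19.1% and 15.9%, the TATA box (TATAAA) in 2.17% and 4.58%, against 5.39% and 6.13%, and the CTCF core in 6.52% and 6.11%, against 9.999% and 9.14%. The CCAAT box was in 22.8% and 28.2%, against 22.2% and 22.3%, and the AP-1 motif (TGANTCA) in 7.61% and 6.87%, against 6.44% and 6.81%. The GATA motif (AGATAA) was in 3.26% and 7.63%, against 5.77% and 6.41%, and the HNF1 motif (GTTAAT) in 5.43% and 6.87%, against 5.93% and 6.27%. The HNF4 element matched no member peak, against 0.203% and 0.236% of all peaks, nor did the CRE (TGACGTCA), against 0.682% and 0.621%. The GRHL motif (AACNGGTT) was in 0 and 2 member peaks, against 1.53% and 1.56% of all peaks. That of ETS (CCGGAAGT) was in 2 and 0, against 1.23% and 1.02%. The estrogen-related receptor motif was in 2 and 2 (2.17% and 1.53%), against 0.490% and 0.586%. Counts this small cannot be weighed against such shares. None of these shares was tested. Rxra alone supplied 35 of the 92 and 40 of the 131 member peaks, and many of the AP-2 matches lay in its peaks. The member peaks were also somewhat richer in G and C, with medians of 56.75% and 54% against 53% and 52%; the part of base composition in these shares was not tested. RefSeq promoters of GRCm38.p6, from 250 bases before to 50 after a start, matched 8 of the 10 genes by symbol, all but Cyp24a1 and Calb1, with 10 sequences in all. The GC box was in 5 of these 10 sequences, from Atp2b1, Kl, Rxra and Vdr, and in 35.7% of all RefSeq promoters. The TATA box was in that of Trpv5 alone and in 13.6% of all promoters, and the GATA motif in those of Trpv5 and Slc8a1 and in 11.2% of all. The CCAAT box was in that of Cyp27b1 alone and in 37.4% of all.

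Related genes of the same pathways mostly had accessible promoters. Of 51 listed genes, 44 had a promoter peak in both libraries, a share to be read against the 65.3% of all genes. In vitamin D synthesis and transport 7 of 8 did. Dhcr7, which turns the vitamin D precursor into cholesterol, stood highest there with 25.3 and 25.6, before Dab2, an adaptor of the endocytic receptor megalin, with 5.95 and 6.00 away from its 5′ end. Gc, the plasma carrier of vitamin D made in liver, had no peak in replicate 1 and 0.219 in replicate 2. All 9 partners and coregulators of the vitamin D receptor had one, led by the coactivator gene Ncoa2 (21.9 and 32.1, away from its 5′ end) and by Rxrb (22.8 and 13.7).

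Of the Klotho and FGF23 genes 7 of 9 had a promoter peak in both libraries, against 65.3% of all genes. The highest were those of Adam10 (24.3 and 14.4) and Adam17 (14.4 and 8.51), whose proteases shed Klotho from the cell surface. Klb, encoding the beta-Klotho of liver and fat, and Fgf23 itself, made in bone, had none. All 6 genes of parathyroid hormone and calcium sensing had one, with Creb1 at 19.3 and 14.4 and Gnas, the stimulatory G protein gene, at 7.73 and 4.93, away from its 5′ end. Casr, the calcium-sensing receptor gene, had only 0.504 and 0.373, and Calcr 0.316 and 0.378, away from its 5′ end.

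Of the other genes of calcium entry, buffering and exit 13 of 15 had a promoter peak in both libraries, against 65.3% of all genes. Slc8b1, the mitochondrial sodium-calcium exchanger gene, had 15.9 and 20.2 and the pump gene Atp2b4 16.9 and 18.9, both higher than any basic promoter peak of the 10 genes. Atp2b2 had none in replicate 1 and 0.238 in replicate 2, and Atp2b3 had none. Both are pump genes known from the nervous system. Of the claudin genes of paracellular calcium flux 2 of 4 had one, Cldn2 with 0.538 and 1.03 and Cldn16 with 0.367 and 0.303, while Cldn14 and Cldn19 had none.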

How the data were processed

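DNase-seq libraries of kidney from 2 male B6CASTF1/J mice form 1 group. For each, the authors deposited peak lists, footprints and an FDR list on mm10, per the labels. Peaks were derived from each library's own alignments, per the file descriptions. For aligner, callers and versions, nothing is given in the sources used here. The signal that the authors deposited per peak is a height; its scaling is not stated, and low values rise in steps as heights divided by depth would. The deposited FDR (q-value) is 0.01 in every footprint row and is listed only below 0.05 along the genome. Depth is unknown, so intervals cover counting error over peaks only. Nothing used here says whether alignment allowed for CAST/EiJ variants.

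The longer of both peak lists was used, since it recovers low sites, and the stricter one served as an alternative. Gene models were GENCODE M21 basic, with 21938 protein-coding genes outside the mitochondrial genome. A promoter peak touched the window of 500 bp to each side of a basic start site, a locus was the gene record with 10 kb on each side, and overlap meant at least 1 bp. A promoter height is that of the highest such peak, at any start site of the gene. Distal peaks had midpoints over 1 kb from every basic start site of any gene. Percentiles are ranks over genes or peaks and no test was run, as 1 group of 2 animals has none. All 10 genes are named, with the highest distal peak of each and, of the pathway list, up to 2 genes per role with the highest mean promoter height and up to 2 without a promoter peak in both libraries. S100g, Casr, Calcr and the tubule markers were named besides. The genes and lists were chosen with earlier results of these data known. Measures were tested on simulated peaks with known answers. Python 3.11.15, NumPy 2.4.6, SciPy 1.17.1, pysam 0.24.0 and samtools 1.23.1 were used.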

Additional observations from a re-analysis of the deposited data

How the results depend on the processing

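The count of genes with a promoter peak in both libraries (7) was 6 to 8 under every alternative: 6 with the stricter peak list, where Trpv5 drops out, with only the outermost 5′ end of each gene, where Vdr drops out, and when the lower 50% of peaks are left out, and 8 with the comprehensive annotation. Each library alone gave 7 to 8. The share of all protein-coding genes, 65.3%, moved to 62.0% with the stricter list, 63.7% at 250 bp, 69.5% at 2 kb, 61.6% at the 5′ end only, 66.9% with the comprehensive annotation (added after seeing the data) and 58.9% with the upper 50% of peaks, and was 66.2% to 68.0% with one library left out. The median of 0.0809 peaks per kb fell to 0.0400 with the upper 50% of peaks, and to 0.04996 with the stricter list, and was 0.0592 to 0.109 with one library left out. Shared peaks of replicate 1, 89.1%, were 96.7% among the upper 50% and 79.3% at 50% reciprocal overlap. The share of peaks with a footprint, 80.8% as a mean of both libraries, rose to 93.5% among the upper 50% and was 73.9% to 87.8% with one library left out. Of the single heights, that of Atp2b1 moved, from 5.68 to 13.7 at 2 kb, at the 5′ end and with the comprehensive annotation. Cyp27b1 and Trpv6 gave no mean height under any setting, and Slc8a1 only with the comprehensive annotation (1.41 and 1.10 in the libraries). Trpv5 gave none with the stricter list and Vdr none at its 5′ end. Unknown depth limits the low peaks: absence of a peak means only that none was called. No paired analysis was possible because there is a single group.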

Other observations

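At Cyp27b1 the share of locus bases listed below an FDR of 0.05 was 9.37% in replicate 1 and 16.4% in replicate 2; for Kl it was 2.48% and 3.34%, for Cyp24a1 4.38% and 7.14% and for Vdr 6.46% and 9.59%, and replicate 2 also had more peaks in all, 177001 against 125393. These genes were picked out after their values were seen.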
